A study of Homo sapiens with 6 samples.

Results

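Collagen genes were examined in MCF10A cells, a non-tumorigenic human mammary epithelial line, carrying an shRNA against FRY. The genes were all those whose platform symbol is COL, a number, A and a number and that had a probe set naming that gene alone: 43 of the 19775 genes tested, with 112 of the 54675 probe sets. The shFRY group was 3 samples of MCF10A cells stably transfected with an shRNA that targets FRY (10A-shFRY), and the control group was 3 samples of MCF10A cells stably transfected with a non-targeting shRNA (10A-CV). Both were selected with puromycin and grown as monolayers in the same mammary epithelial medium with epidermal growth factor, insulin, hydrocortisone, bovine pituitary extract, gentamicin and amphotericin-B. Each group came from 1 stable clone, the 10A-shFRY clone having been picked for a lowered FRY level, and its samples varied in passage number. Any difference is thus one between 2 clones, and a p-value reflects only how far samples of the same clone at varied passage spread. With 1 array for each of the 6 samples, the number of arrays limits the precision.

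Collagens are proteins of 3 chains wound into a triple helix. Fibrillar collagens form the cable-like fibres of connective tissue, and FACIT collagens (fibril-associated collagens with interrupted triple helices) sit on the surface of such fibres. The type IV collagens form the sheet-like network of basement membranes, on which mammary epithelium rests. The remaining collagens include beaded filaments (type VI), short chain networks (types VIII and X), anchoring fibrils (type VII), transmembrane collagens and the multiplexins of basement membrane zones. Of the transmembrane collagens, COL17A1 had no probe set naming it alone, so it is not among the genes examined. In tissue, fibrillar collagens come mainly from fibroblasts, whereas epithelial cells make basement membrane components.

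The deposited values are log2 signals normalised by RMA, and all differences below are shFRY minus control on that scale. A gene was represented by its probe set with the highest mean over the 6 samples, and was called at a limma adjusted p under 0.05 over all 19775 genes. FRY, the targeted gene, makes a very large protein of microtubules and a partner of the NDR kinases. One of its 4 probe sets was called, with 2.88, 3.31 and 3.14 in shFRY samples 1 to 3, against 4.23, 3.55 and 3.81 in control samples 1 to 3 (difference -0.75, SE 0.19, limma adjusted p = 0.0223 over all probe sets). At the other 3 FRY probe sets the differences were -0.49, -0.32 and -0.49 and did not pass, and at 1 of these, the brightest, the groups overlapped. Epithelial markers were high: EPCAM, an epithelial adhesion molecule, was at 10.07 ± 0.03 in shFRY and 10.08 ± 0.01 in control (SD, n = 3 each). All 7 measured genes of the epithelial list lay above the median of the probe sets in every sample. That list includes VIM, which is also a mesenchymal marker. Among the 7 genes the basal keratin gene KRT14 was higher in shFRY by 2.92, VIM by 0.53 and CDH1 by 0.37. The luminal keratin genes KRT8 and KRT18 fell by 0.93 and 0.37. The beta-actin 3' minus 5' signal, which grows as RNA is degraded, was 2.88, 2.89 and 2.84 in shFRY and 2.33, 2.52 and 2.71 in control, without overlap (two-sided exact permutation test, p = 0.1, the lowest value this design allows). The same measure for GAPDH overlapped between the groups. A fit with the beta-actin measure as a covariate, in which far fewer genes of any kind were called, is given beside the collagen genes whose call it ended. Because the beta-actin measure separates the groups, RNA quality and clone cannot be told apart in that fit.

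Type IV collagen genes lie in head-to-head pairs that share the stretch between their start sites. In the promoter table of RefSeq (GRCh38.p14), in which 31 of the 43 genes had a window, 126 bases separate the starts of COL4A1 and COL4A2, 418 those of COL4A3 and COL4A4, and 379 those of COL4A5 and COL4A6. The whole stretch between COL4A1 and COL4A2 is shown because these 2 genes rose together, with 250 bases before the start of COL4A5, whose pair did not pass, and of COL12A1 and COL16A1, the FACIT genes that rose. Each is written 5' to 3' on the strand of the gene (the plus strand for the first), and capitals mark motif matches.
COL4A1-COL4A2, chr13:110307158-110307283, plus strand: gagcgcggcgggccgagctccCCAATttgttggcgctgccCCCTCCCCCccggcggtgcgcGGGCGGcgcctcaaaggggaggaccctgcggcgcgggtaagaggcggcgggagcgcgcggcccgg
COL4A5, chrX:108439588-108439837, plus strand: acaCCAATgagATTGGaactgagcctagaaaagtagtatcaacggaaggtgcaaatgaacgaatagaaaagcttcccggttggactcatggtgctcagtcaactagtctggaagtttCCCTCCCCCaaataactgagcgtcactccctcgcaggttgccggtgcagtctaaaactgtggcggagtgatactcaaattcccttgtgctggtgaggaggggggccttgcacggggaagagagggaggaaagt
COL12A1, chr6:75206054-75206303, minus strand: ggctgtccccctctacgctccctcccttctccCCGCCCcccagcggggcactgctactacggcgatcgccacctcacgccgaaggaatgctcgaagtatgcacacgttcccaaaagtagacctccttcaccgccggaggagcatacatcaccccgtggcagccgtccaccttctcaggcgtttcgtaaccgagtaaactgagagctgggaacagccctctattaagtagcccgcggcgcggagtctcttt
COL16A1, chr1:31704018-31704267, minus strand: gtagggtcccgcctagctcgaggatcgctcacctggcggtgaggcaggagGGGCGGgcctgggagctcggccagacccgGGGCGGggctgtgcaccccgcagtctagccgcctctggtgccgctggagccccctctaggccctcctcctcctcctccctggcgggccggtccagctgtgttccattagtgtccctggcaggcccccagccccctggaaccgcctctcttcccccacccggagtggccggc

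The motifs searched, on both strands, were the CCAAT box (CCAAT), the GC box (GGGCGG), the TATA box (TATAAA), the AP-1 site (TGANTCA) and the CTC box (CCCTNCCCC), an element described in the COL4A1 and COL4A2 promoter. No match overlapped another. The COL4A1-COL4A2 stretch, 80.2% G and C, held 1 CCAAT box, 1 CTC box and 1 GC box. Among 35116 promoter windows cut to the same 126 bases before the start, 21.1% held a CCAAT box, 6.4% a CTC box and 34.6% a GC box. The COL4A5 window, 51.2% G and C, held 2 CCAAT boxes and 1 CTC box, which 32.0% and 10.6% of the 250-base windows held. COL12A1 held 1 GC box and COL16A1 held 2, and 42.6% of windows held at least 1. None of the 4 stretches held the letters of the TATA box or the AP-1 site, which 10.7% and 6.6% of 250-base windows did. Of the windows cut to 126 bases, the length of the COL4A1-COL4A2 stretch, 5.9% and 3.5% did. These matches describe letters only.

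Among the 43 collagen genes 8 rose and 3 fell in shFRY cells, and 32 did not pass. That is 25.6% of them, close to the 29.8% of all genes called (13.7% higher and 16.0% lower). The median collagen difference was 0.06, beside 0.03 over all genes. At least 2-fold differences were called for 5 collagen genes that rose and 2 that fell, beside 3.42% of all genes higher and 4.08% lower. Samples of the 2 groups stayed apart for 16 of the 43 genes (37.2%), beside 44.2% of all genes. The called share followed signal strength: 18 collagen genes had a mean above the median of the probe set means, 3.04, and 9 of them (50.0%) were called, beside 44.2% of all genes above it. Of the 25 collagen genes below it 2 (8.0%) were called, beside 8.2% of all such genes. Differences of dim probe sets are compressed, so a dim collagen gene that did not pass may still differ. Fewer expressing cells and less RNA per cell cannot be told apart in these bulk samples.

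The basement membrane, fibrillar and FACIT collagens each had 2 genes that rose, and 1 fibrillar gene fell. Of 6 basement membrane genes 33.3% were called (2 higher, 0 lower), of 11 fibrillar genes 27.3% (2 higher, 1 lower) and of 10 FACIT genes 20.0% (2 higher, 0 lower). Of all genes 29.8% were called, 44.2% of those above the probe set median and 8.2% of those at or below it. Each class share rests on 2 or 3 called genes, so their order is not a class result. In limma 0 basement membrane and 0 FACIT genes were lower at an unadjusted p under 0.05 as well. The class medians were 0.01, 0.00 and 0.07. Over the probe sets above the median signal alone they were 0.80 (4 basement membrane genes), -0.28 (3 fibrillar genes) and 1.09 (3 FACIT genes), so each median moved when the dim members were left out. The called basement membrane and FACIT genes all differed by at least 2-fold, whereas the fibrillar genes that rose differed by less. Above the probe set median lay 4 of 6 basement membrane genes, 3 of 11 fibrillar genes and 3 of 10 FACIT genes. A difference between the classes was not tested.

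**Figure D1:**
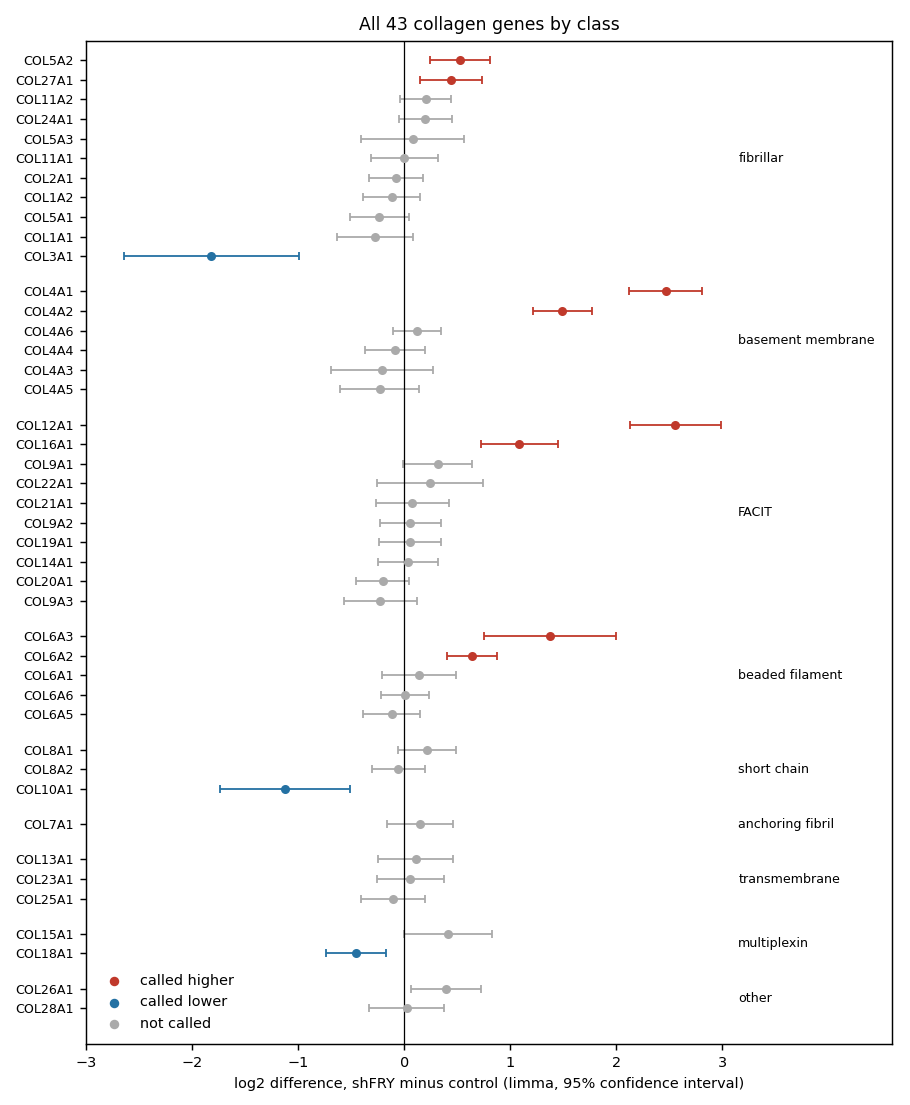
Log2 difference (shFRY minus control, x axis) of all 43 collagen genes, with limma 95% confidence intervals as bars, grouped by class down the page. The called genes that rose are in red and those that fell in blue: COL12A1, COL4A1 and COL4A2 lie farthest to the right, and COL3A1 lies farthest to the left at -1.82.

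The basement membrane class split by pair. COL4A1, whose chain with that of COL4A2 makes the type IV collagen found in almost every basement membrane, had 7.37, 7.28 and 7.23 in shFRY samples 1 to 3, against 4.50, 5.05 and 4.93 in control samples 1 to 3. The lowest shFRY sample lay well above the highest control sample. The difference was 2.47 (SE 0.15, limma adjusted p = 1.94e-05), a 5.52-fold rise, with a 95% confidence interval of 2.12 to 2.81 on the log2 scale. COL4A2 had 6.37, 6.22 and 6.43 in shFRY, against 4.65, 4.93 and 4.97 in control, again without overlap. Its difference was 1.49 (SE 0.12, limma adjusted p = 7.94e-05), a 2.81-fold rise. At the second probe set of each gene the difference was 1.99 for COL4A1 and 0.97 for COL4A2, both called.

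The other 4 type IV genes did not pass. COL4A5 and COL4A6 encode chains that assemble together in some epithelial basement membranes. COL4A5 had 6.40, 6.06 and 5.91 in shFRY and 6.51, 6.45 and 6.10 in control (difference -0.23, 95% confidence interval -0.60 to 0.14). COL4A6 had 8.43, 8.37 and 8.25 in shFRY and 8.24, 8.17 and 8.29 in control (difference 0.12, 95% confidence interval -0.11 to 0.34). Both were clearly above the median of the probe sets and their groups overlapped. A dimmer COL4A6 probe set differed from this: it had 3.80, 3.61 and 3.88 in shFRY against 2.88, 2.91 and 2.71 in control (difference 0.93, SE 0.12, limma adjusted p = 0.000888 over all probe sets), and with the mean of all COL4A6 probe sets the gene passed at 0.38. COL4A3 and COL4A4, chains of the kidney, lung and inner ear, were below the sample median in all 6 samples, at differences of -0.21 and -0.09.

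Genes known from other cell types that make type IV collagen moved in both directions. Among 5 endothelial genes the receptor gene TEK rose by 1.85, called at 1 of 2 probe sets and from a control mean of 1.73. KDR fell by 2.45, and CDH5 and VWF were below the sample median in all 6 samples. PECAM1 was above that median in all 6 (7.40 ± 0.13 in shFRY and 7.54 ± 0.07 in control, SD, n = 3 each). The summed log2 signal of the 5 was 17.8 to 19.5 in shFRY and 19.1 to 19.6 in control. Among 3 smooth muscle genes MYH11 rose by 0.65, called at 1 of 7 probe sets. CNN1 was below the median throughout, and the sum was 10.9 to 12.0 in shFRY and 10.7 to 10.8 in control. Their part in the type IV result was not tested.

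The change of one type IV gene was set against that of another, with 1 value per sample. Each gene was read at its brightest probe set alone, although the dimmer COL4A6 probe set differed by 0.93. The second probe sets of COL4A1 and COL4A2 stood at 1.99 and 0.97, below the 2.47 and 1.49 of the brightest. The SE below covers the spread between samples and not that between probe sets of a gene. The COL4A1 change exceeded the COL4A2 change by 0.98 (SE 0.11) and the COL4A6 change by 2.35 (SE 0.18), and the COL4A2 change exceeded the COL4A5 change by 1.72 (SE 0.26). Each had a two-sided exact permutation p of 0.1, the lowest this design allows, and 0.1 after adjustment over the 5 pairs compared here. All 5 pairs were chosen with earlier results of these data known, so their p-values give no independent support.

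**Figure D2:**
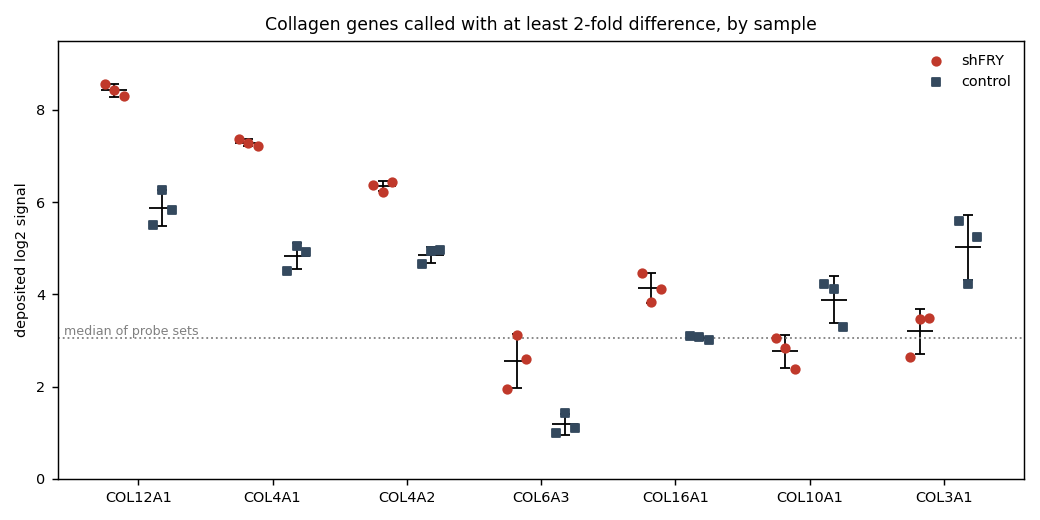
Deposited log2 signal (y axis) in every sample of the 7 collagen genes called with at least a 2-fold difference, shFRY as red circles left of control as dark squares; black lines are the mean and SD of 3 samples. No gene's groups overlap, and samples of COL6A3 (in both groups), COL16A1 (in control) and COL10A1 and COL3A1 (in shFRY) come near or below the dotted median of the probe sets.

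Of the 10 FACIT genes 2 rose, COL12A1 and COL16A1, and the other 8 did not pass. COL12A1, whose long chain decorates type I collagen fibrils, had 8.56, 8.42 and 8.29 in shFRY, against 5.51, 6.27 and 5.84 in control. The groups lay more than 2 log2 units apart. The difference was 2.56 (SE 0.19, limma adjusted p = 4.88e-05), a 5.88-fold rise with an interval of 4.37 to 7.91. Of its 5 probe sets 4 were called, with differences of 2.19 to 2.56, and the other, a dim one, stood at 0.07. COL16A1, a minor component of fibrils and of microfibrils, has 1 probe set. It had 4.47, 3.83 and 4.12 in shFRY and 3.10, 3.07 and 3.0 in control, the control values lying near the probe set median. The difference was 1.09 (SE 0.16, limma adjusted p = 0.00138), and with the beta-actin covariate it was 1.19 and did not pass (limma adjusted p = 0.0909). The COL12A1 change exceeded the COL16A1 change by 1.47 (SE 0.28, two-sided exact permutation p = 0.1). COL16A1 was the dimmer gene, and differences of dim probe sets are compressed. The part of that compression in the excess was not tested.

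The type IX genes COL9A1, COL9A2 and COL9A3, whose chains coat cartilage fibrils, had differences of 0.32, 0.06 and -0.23. COL9A3 was above the sample median in all 6 samples (3.89 ± 0.28 in shFRY and 4.12 ± 0.11 in control, SD, n = 3 each). COL20A1, with 2.86, 2.78 and 2.82 in shFRY against 3.20, 2.98 and 2.90 in control, did not overlap between the groups but did not pass (difference -0.20, limma adjusted p = 0.206). COL14A1, COL19A1, COL21A1 and COL22A1 were below the sample median in all 6 samples, with differences between 0.03 and 0.24.

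The fibrillar genes moved in both directions. COL3A1, a fibrillar collagen of distensible connective tissue, had 2.64, 3.47 and 3.50 in shFRY, against 5.59, 4.23 and 5.25 in control. The groups did not overlap, but control sample 2 was lower than the other control samples. The difference was -1.82 (SE 0.36, limma adjusted p = 0.00603), a signal that fell by 71.7%. A second probe set had 3.24, 2.74 and 3.0 in shFRY, against 5.69, 4.51 and 5.39 in control (difference -2.20, SE 0.28, limma adjusted p = 0.000907 over all probe sets). The remaining 3 probe sets did not pass, at -0.84, 0.39 and 0.03, and all were dimmer. Both probe sets called are of the _s_at or _x_at kind, which can read related sequences, and without such probe sets COL3A1 was at 0.39 and was not called. With the beta-actin covariate it was at -1.48 and did not pass (limma adjusted p = 0.311).

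Other genes known from fibroblasts were also lower. DCN and LUM, proteoglycans that bind fibrils, and DPT (dermatopontin) were called lower at -2.79, -3.94 and -2.75. Without _s_at and _x_at probe sets LUM was at -0.02 (limma adjusted p = 0.957) and DCN at -1.45. The 10 listed fibroblast genes include COL1A1, COL1A2 and COL3A1 itself; of the 7 others these 3 fell and 1 rose, FAP, a serine protease of activated fibroblasts (0.74). The summed log2 signal of the 7 was 21.7 to 24.2 in shFRY and 29.7 to 31.6 in control, beside 31.5 to 33.3 in shFRY and 40.8 to 43.7 in control for all 10. Without LUM, DCN and DPT, a trimming made after their values were seen, the sum of the remaining 4 was 14.6 to 14.8 in shFRY and 13.1 to 13.8 in control, the opposite order. PDGFRA, THY1 and COL1A2 were below the sample median in all 6 samples. Of 3 measured immune genes PTPRC fell by 1.06, CD14 and CD3E were below the median in all 6 samples, and the sum was 5.81 to 6.50 in shFRY and 6.59 to 7.73 in control. The part of these genes in the COL3A1 result was not tested.

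COL5A2, a regulatory chain that helps start fibrils, is the next protein-coding gene after COL3A1 on chromosome 2, and it rose. It had 4.54, 4.28 and 4.28 in shFRY and 3.82, 3.71 and 3.99 in control (difference 0.53, SE 0.12, limma adjusted p = 0.0127), and its second probe set stood at 0.39 without passing. The COL5A2 change exceeded the COL3A1 change by 2.35 (SE 0.52, two-sided exact permutation p = 0.1). The COL5A2 call was lost without control sample 2 (0.46, limma adjusted p = 0.0508) and with the beta-actin covariate (0.35, limma adjusted p = 0.472). COL27A1, a fibrillar collagen of cartilage, had 3.34, 3.07 and 2.93 in shFRY and 2.67, 2.77 and 2.57 in control (difference 0.44, SE 0.13, limma adjusted p = 0.0333). This call was lost in 8 of 14 alternatives, including each fit without a control sample and those without shFRY sample 1 or 2 (0.33 to 0.53 over the fits with a sample left out), and its 4 other probe sets did not pass (-0.11 to 0.25). COL27A1 was at 0.50 with the beta-actin covariate (limma adjusted p = 0.346).

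The chains of type I collagen, the main fibre of stroma, did not pass. COL1A1 had 4.46, 4.19 and 4.37 in shFRY, against 4.35, 4.91 and 4.59 in control (difference -0.28, 95% confidence interval -0.63 to 0.08), and none of its 5 probe sets was called. COL1A2 was at 1.96 ± 0.05 in shFRY and 2.08 ± 0.18 in control (SD, n = 3 each), below the sample median in all 6 samples. The same held for COL2A1, COL5A1, COL5A3, COL11A1, COL11A2 and COL24A1, with differences between -0.24 and 0.20.

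**Figure D3:**
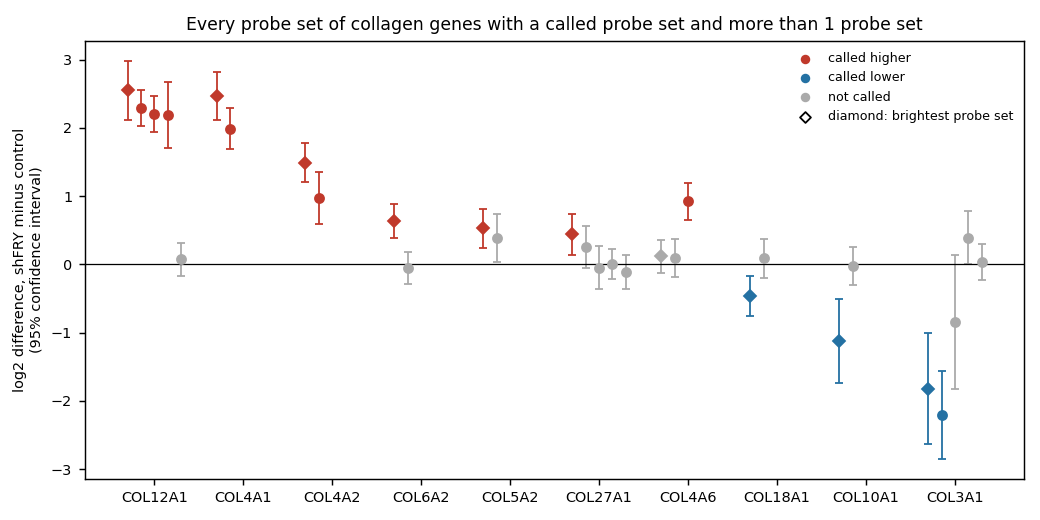
Log2 difference (shFRY minus control, y axis) with 95% confidence interval of every probe set of the 10 collagen genes that have several probe sets and at least 1 called, ordered by signal from left to right within a gene; the diamond is the probe set that stands for the gene. COL12A1, COL4A1, COL4A2 and COL3A1 have more than 1 called probe set in the same direction, and the others have 1.

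Probe sets of a gene did not always move together. Of the 112 collagen probe sets 14 were called higher and 4 lower, 16.1% in all, beside 23.1% of all probe sets. Several probe sets were present for 35 of the 43 genes. Of the 11 called genes, 4 had a second probe set called in the same direction (COL12A1, COL4A1, COL4A2 and COL3A1), and no collagen gene had probe sets called in opposite directions. Among the 11, COL16A1 and COL6A3 have only 1 probe set each, so their agreement could not be checked.

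In type VI collagen, whose chains form beaded filaments around cells, 2 of 5 genes rose and 0 fell (0 also at an unadjusted limma p under 0.05). That is 40.0% called, beside 29.8% of all genes. COL6A3 had 1.94, 3.12 and 2.60 in shFRY, against 0.99, 1.44 and 1.11 in control. The groups did not overlap, and every control value was far below the sample median. COL6A3 has only 1 probe set, and shFRY samples 1 and 3 were below the sample median as well. The difference was 1.38 (SE 0.27, limma adjusted p = 0.00605), lost with the beta-actin covariate (1.24, limma adjusted p = 0.269). COL6A2 had 3.72, 3.64 and 3.57 in shFRY and 2.97, 2.91 and 3.13 in control (difference 0.64, SE 0.10, limma adjusted p = 0.00231), while its other probe set was at -0.06. With the beta-actin covariate it was at 0.48 and did not pass (limma adjusted p = 0.240). COL6A1, the partner of both in the trimer, had a difference of 0.14 and no called probe set among 8. COL6A5 and COL6A6 were below the sample median in all 6 samples.

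Among the short chain collagens COL10A1, known from growth plate cartilage, fell. It had 3.06, 2.85 and 2.37 in shFRY, against 4.23, 4.12 and 3.29 in control, where sample 3 stood apart from the other control samples. The difference was -1.12 (SE 0.27, limma adjusted p = 0.0143), it was lost without control sample 1 (-0.95, limma adjusted p = 0.0601) or control sample 2 (limma adjusted p = 0.0548), and the second probe set was at -0.03. With the beta-actin covariate it was at -0.33 (limma adjusted p = 0.737). COL8A1, of type VIII collagen, was bright in both groups, at the percentile 98.8 of all probe sets. It had 10.84, 11.07 and 11.20 in shFRY and 10.88, 10.83 and 10.76 in control, a difference of 0.22 (95% confidence interval -0.06 to 0.49) that did not pass.

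COL18A1, a multiplexin of basement membranes whose end piece is endostatin, had 3.42, 3.76 and 3.66 in shFRY, against 4.01, 4.0 and 4.21 in control. The difference of -0.46 (SE 0.12, limma adjusted p = 0.0240) was lost in 7 of 14 alternatives, among them each fit without a control sample and the fit without shFRY sample 1 (-0.53 to -0.36 over the fits with a sample left out), and the second probe set was at 0.09. COL18A1 was at -0.64 with the beta-actin covariate (limma adjusted p = 0.191). COL7A1, the anchoring fibril collagen below stratified epithelia, had 5.18, 5.15 and 4.97 in shFRY, against 5.18, 4.94 and 4.74 in control (difference 0.15, 95% confidence interval -0.16 to 0.45). COL26A1 did not overlap between the groups (3.62, 3.64 and 3.85 in shFRY, 3.33, 3.05 and 3.54 in control) but did not pass (difference 0.39, limma adjusted p = 0.0726). The remaining genes, COL8A2, COL13A1, COL15A1, COL23A1, COL25A1 and COL28A1, did not pass, with differences between -0.11 and 0.41. Among them COL15A1, the other multiplexin, did not overlap between the groups (1.40 ± 0.38 in shFRY and 0.99 ± 0.05 in control, SD, n = 3 each) but was below the sample median in all 6 samples.

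The genes that modify, export, process, crosslink, bind and cleave collagen were mixed. Of the 57 listed, 55 were measured, 13 rose and 7 fell, 36.4% in all beside the 29.8% of all genes, with a median of 0.16. The called share follows signal strength, and 36 of the 55 lay above the probe set median. Of all genes, 44.2% were called above that median and 8.2% at or below it. With the beta-actin covariate 7 of the 20 collagen handling calls remained: LOX, MIA2, P3H2, ITGA10, ITGA2, DCN and LUM. Among 13 prolyl and lysyl hydroxylation genes 1 rose and 2 fell. P3H2, a prolyl hydroxylase that acts on type IV collagen, had 8.48, 8.27 and 8.16 in shFRY and 7.30, 7.28 and 7.16 in control (difference 1.05, SE 0.11, limma adjusted p = 0.000319), but 1 of its 2 probe sets was called, and without _s_at and _x_at probe sets it stood at -0.04. PLOD1, a lysyl hydroxylase, fell by 0.71. P3H4, a subunit of a lysyl hydroxylase complex, fell by 0.64, a call lost in 7 of 15 alternatives, among them the fits without shFRY sample 1 or 3 and without control sample 1 or 3. The general prolyl hydroxylase genes P4HA1, P4HA2 and P4HB did not pass, at -0.10, 0.03 and -0.28. The galactosyltransferase gene COLGALT1 was at -0.02.

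Among 8 chaperone and export genes 3 rose and 1 fell. That is 50.0% called, beside 29.8% of all genes. Of the 8 genes 7 lay above the probe set median, where 44.2% of all genes were called. MIA2 and MIA3, whose proteins load large cargo such as procollagen into transport carriers, had differences of 1.31 and 0.45, and KLHL12, an adaptor for enlarging such carriers, 0.38. The MIA3 and KLHL12 calls were each lost in 6 of 15 alternatives, including without shFRY sample 1, shFRY sample 2 or control sample 3, and also without control sample 2 for MIA3 and control sample 1 for KLHL12. MIA2 was called at 1 of 4 probe sets and stood at 0.26 without _s_at and _x_at probe sets. The collagen chaperone gene SERPINH1 (HSP47) had 7.26, 7.55 and 7.42 in shFRY, against 8.01, 7.89 and 7.79 in control, a fall by 0.49 (limma adjusted p = 0.0135). That call was lost without control sample 1, as was that of PCOLCE2. Of the 8 propeptide removal genes, the procollagen C-proteinase gene BMP1 rose by 0.53, with 3 of 7 probe sets called (lost without _s_at and _x_at probe sets, limma adjusted p = 0.0683), and PCOLCE2, an enhancer gene for that enzyme, fell by 0.78.

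The crosslinking enzyme gene LOX rose in shFRY: 9.07, 9.10 and 9.21 in shFRY, against 7.31, 7.07 and 7.21 in control, with all 3 probe sets called (difference 1.93, SE 0.11, limma adjusted p = 1.19e-05). LOXL1 fell by 0.48 at a limma adjusted p of 0.0472, and 12 of 15 alternatives did not keep that call. Of 9 measured receptor genes 5 rose and 0 fell (0 also at an unadjusted limma p under 0.05). That is 55.6% called, beside 29.8% of all genes. Of the 9 genes 6 lay above the probe set median, where 44.2% of all genes were called. ITGA10, ITGA2 and ITGA1, which pair with integrin beta 1 to bind collagen, had differences of 1.42, 0.92 and 0.89, and DDR2, a collagen receptor kinase, 0.97. ITGB1, the integrin beta 1 gene, rose by 0.30 (limma adjusted p = 0.0469), with 2 of 7 probe sets called. The ITGB1 call was lost with the replicate block, with the beta-actin covariate and without _s_at and _x_at probe sets. ITGA1 was at 2.60 ± 0.09 in shFRY and 1.71 ± 0.24 in control (SD, n = 3 each), below the probe set median in both groups. Of the collagenase genes MMP14 rose by 0.82, with 3 of 4 probe sets called. MMP13 rose by 0.43 at a signal of 1.86 in shFRY and 1.42 in control, and its only probe set did not pass in the fit over all probe sets. The MMP13 call was lost in 7 of 14 alternatives, among them each fit without a control sample and those without shFRY sample 1 or 2. MMP1 and MMP8 did not pass. Among the 7 fibril-associated proteoglycan genes the fall of LUM rested on 1 of 2 probe sets, whereas 4 of 7 DCN probe sets were called lower.

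**Figure D4:**
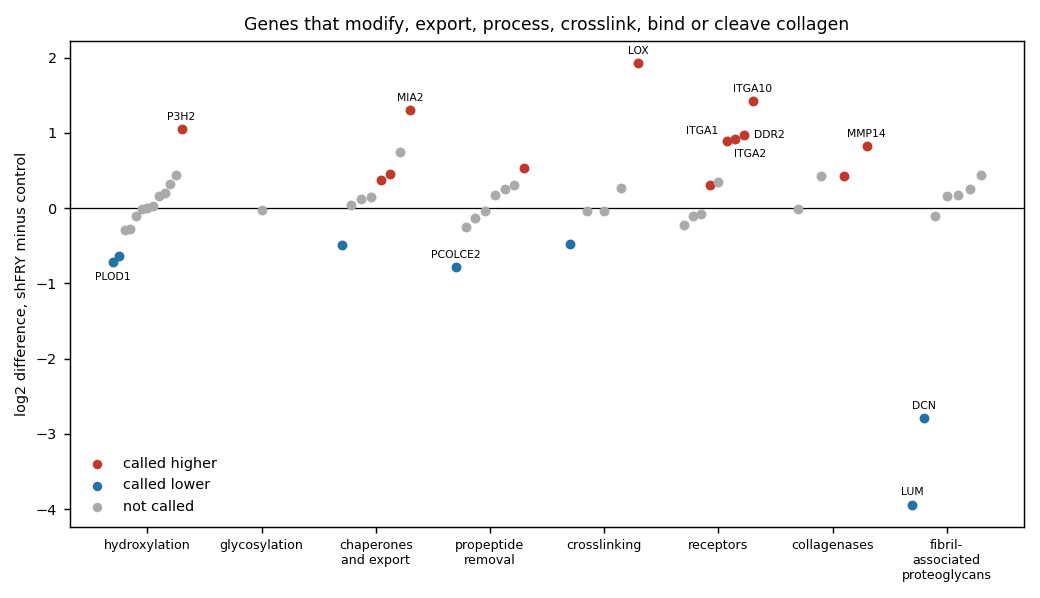
Log2 difference (shFRY minus control, y axis) of 55 measured genes of collagen handling, by role on the x axis; each point is a gene, red if called higher, blue if called lower and grey if not called. LOX (1.93) is the highest point and LUM (-3.94, or -0.02 without _s_at and _x_at probe sets) the lowest.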

How the data were processed

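Total RNA of 6 MCF10A samples was amplified, biotin-labelled and hybridised to 1-colour arrays, per the labels' protocols. The deposited values are log2 signals of probe sets made by the authors with RMA, per the submitters' processing notes; its version was not given in the sources used, and the values were used as deposited. The sample medians were 3.02 to 3.06. Probe sets were named through the platform annotation, and symbols were updated by Entrez ID to RefSeq (GRCh38.p14) for 41037 of 41091 single-symbol probe sets; 1801 probe sets with several symbols and 11721 with none were not used for genes. No filter on dim probe sets was set.

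Groups and replicate numbers come from the sample titles. limma 3.58.1 in R 4.3.3 (lmFit, eBayes, 4 residual degrees of freedom) compared shFRY with control over 19775 genes and, for single probe sets, over 54613 probe sets, with Benjamini-Hochberg adjustment. The script was tested on simulated data. Same-numbered samples did not deviate together (correlations -0.00 to 0.01), so the numbers do not pair them. Alternatives were median centring, another quantile normalization, trend and robust options, only probe sets above the median signal, the mean of probe sets, no _x_at and _s_at probe sets, array weights, the replicate block, the beta-actin covariate and each sample left out. Named genes are all collagen genes, FRY and, per role, up to 4 called members with the largest absolute difference, or up to 2 with the smallest p where none was called. The genes of the epithelial, fibroblast, endothelial, smooth muscle and immune marker lists, P4HA1, P4HA2, P4HB, ITGB1, MMP1 and MMP8 were named outside that rule after their values were seen. Members, lists and gene pairs were chosen with earlier results of these data known.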

Additional observations from a re-analysis of the deposited data

How the results depend on the processing

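The rises of COL4A1, COL4A2 and COL12A1 passed in all 15 alternatives (lowest differences 2.06, 1.23 and 1.86). The collagen genes called higher numbered 8, and 6 to 8 with each sample left out; those called lower numbered 3, and 1 to 3 (1 without control sample 1 and 1 without control sample 2). With the beta-actin covariate 3 collagen genes were higher and 0 lower, with 0 fibrillar higher, 0 fibrillar lower and 1 FACIT higher; over all genes this fit called 545 higher and 481 lower, against 2718 and 3171 without it. Without _x_at and _s_at probe sets, which leaves 37 of 43 collagen genes and drops COL10A1 and COL18A1, 2 of the 3 that fell, 0 collagen genes and 0 fibrillar genes were lower, and COL3A1 (0.39) and P3H2 (-0.0419) changed sign; LOXL1 did so with the beta-actin covariate (0.0545). The fibrillar genes higher, 2 as reported, were 1 with trend and robust options, 1 over the probe sets above the median signal and 1 with the mean of probe sets, and 0 to 2 with each sample left out. A sign change of a difference called in neither fit was not counted. COL26A1 passed in 4 alternatives (1 of them without control sample 3), COL15A1 in 1 (without shFRY sample 1) and COL4A6 in 1 (the mean of its probe sets). The genes of collagen handling were 13 higher and 7 lower, 5 and 2 with the beta-actin covariate and 8 and 3 without _x_at and _s_at probe sets. With the replicate block the collagen counts were 8 higher and 3 lower as before, and the genes of collagen handling were 11 higher and 6 lower. Among the genes named by the rule, the block lost the call of KLHL12 and of LOXL1. It also lost that of ITGB1, which was named outside the rule. Apart from the genes so dropped, the causes of these changes were not tested. Signal over background limits what can be said of the 21 collagen genes below the sample median in all 6 samples.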
